A study of Homo sapiens with 60 samples.

Results

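The 40 genes described here encode the HSP90 chaperones with their cochaperones, the HSP40 or J-proteins, the BAG factors, the mitochondrial chaperonin, the CCT ring, HSF1, HSF2 and HSPB1. They were taken by symbol from a table of 58395 gene identifiers. All 40 were found, and all 40 passed the filter on low counts that left 18985 genes for testing. The genes fall into 3 HSP90 proteins, 8 HSP90 cochaperones, 10 J-proteins, 6 BAG factors, 2 subunits of the mitochondrial chaperonin, 8 subunits of the CCT ring, 2 heat shock factors and 1 small heat shock protein.

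Poly(A) RNA came from HEK293A, an established line of embryonic kidney origin, with the genotype label of a TDP1 knockout. TDP1 clears trapped topoisomerase from DNA ends, topotecan is the drug that traps it, and OL9-119 is a compound known as an inhibitor of TDP1. There were 5 treatments, all lasting 5 to 5.5 hours: topotecan at 100 nM together with OL9-119 at 5 µM (the combination, for which the label names no DMSO), OL9-119 at 5 µM in 0.1% DMSO, topotecan at 100 nM with 0.1% DMSO, 0.1% DMSO, and no treatment. Each was applied to 3 knockout clones named C6, F7 and G6 in 4 biological replicates, which gives 12 libraries per treatment and 60 in all. Every library carries the knockout, each line is a single clone, and no unedited parental library was used here. The labels do not say whether replicates were separate cultures, so p-values measure the spread between these libraries.

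Library totals lay between 4.62 and 20.9 M counts, with a median of 11.4 M. TDP1 itself was still counted in every library, at a median per clone of 27.4 to 32.0 counts per 1 M counts of the library (CPM), and a total over the gene does not show the edited bases. Thinned to 4.5 M counts, 14 libraries had 17453 to 19353 genes with a count, against 20138 to 23611 in the remaining 46. Of these 14, 10 came from clone C6 and 4 from G6, with 4 after the combination, 3 after OL9-119, 2 after topotecan, 3 in DMSO and 2 untreated. Of 12 genes listed as markers of HEK293 cells, 10 had a median above 1 CPM. PAX8 and INA did not. Markers of hepatocytes were above 1 CPM for 0 of 5 genes, those of blood cells for 2 of 7, those of fibroblasts for 4 of 6 and those of other epithelia for 3 of 5. The summed level of the HEK293 markers was 1452 to 2283 CPM, and that of the fibroblast markers 17.7 to 49.2 CPM. KRT8, VIM and KRT18 had the highest medians of the HEK293 list, at 690.5, 464.4 and 294.8 CPM. PAX2, PAX8, LHX1, EYA1 and WT1 had medians between 0.653 and 18.4 CPM. The sum is therefore no test of the identity of the line.

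Chaperones bind unfolded protein and release it in cycles driven by ATP. J-proteins bring clients to HSP70 and stimulate its ATPase, BAG factors release the nucleotide again, and STIP1 passes the client on to HSP90, whose cycle is timed by cochaperones such as AHSA1, PTGES3 and CDC37. The chaperonins are closed chambers: HSPD1 with its lid HSPE1 in mitochondria, and the CCT ring for actin and tubulin in the cytosol. Many of these genes are switched on by the transcription factor HSF1, which binds repeated GAA and TTC units, called heat shock elements, near the start of the gene.

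After OL9-119, 21 of the 40 genes fell and 1 rose relative to DMSO. The largest falls were in the mitochondrial lid HSPE1 and in the J-proteins DNAJB4, DNAJB1 and DNAJA1, at 28.1 to 39.9% below DMSO. HSP90AA1, HSP90AB1, 6 HSP90 cochaperones, DNAJB6, DNAJA2, BAG3, HSPD1 and 5 CCT subunits fell by less, at 7.44 to 24.9%. DNAJA3 rose by 12%. Genes were called at an adjusted p under 0.05 by edgeR's quasi-likelihood test with Benjamini-Hochberg adjustment over all genes tested, in a fit of all 60 libraries that averages the difference within the 3 clones. Over all genes tested, 5.00% were lower and 4.47% higher by this rule (9.47% in either direction). Among the 40, the lower share was 52.5%. Their median log2 change was -0.15, against 0.01 over all genes tested. All 21 lower genes had a log2 change below 0 in 3 of 3 clones, which are the clones the test averages. In bulk RNA, fewer cells that express a gene and less of its RNA per cell cannot be told apart.

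Without the 14 libraries of low gene detection 24 of the 40 were lower and 2 higher, with all 22 genes called again. In that fit 13.7% of all genes tested passed in either direction. With library totals in place of TMM scaling, the median log2 change of the 40 was -0.10. DNAJA2, AHSA1, ST13, FKBP4, CCT7 and CCT8 then lost their calls. Library names carry a prefix of L01, L02 or L03, with 20 libraries each and every group present in each. Fits within a prefix each used a part of the same libraries. Only G6 in L01, C6 in L02 and F7 in L03 have more than 1 library per group. The spread in each of these fits comes from that clone alone, so only signs and sizes are read from them here. All 22 genes kept their sign within each prefix. The median log2 change of the lower genes was -0.20 in L01, -0.22 in L02 and -0.17 in L03.

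**Figure D1:**
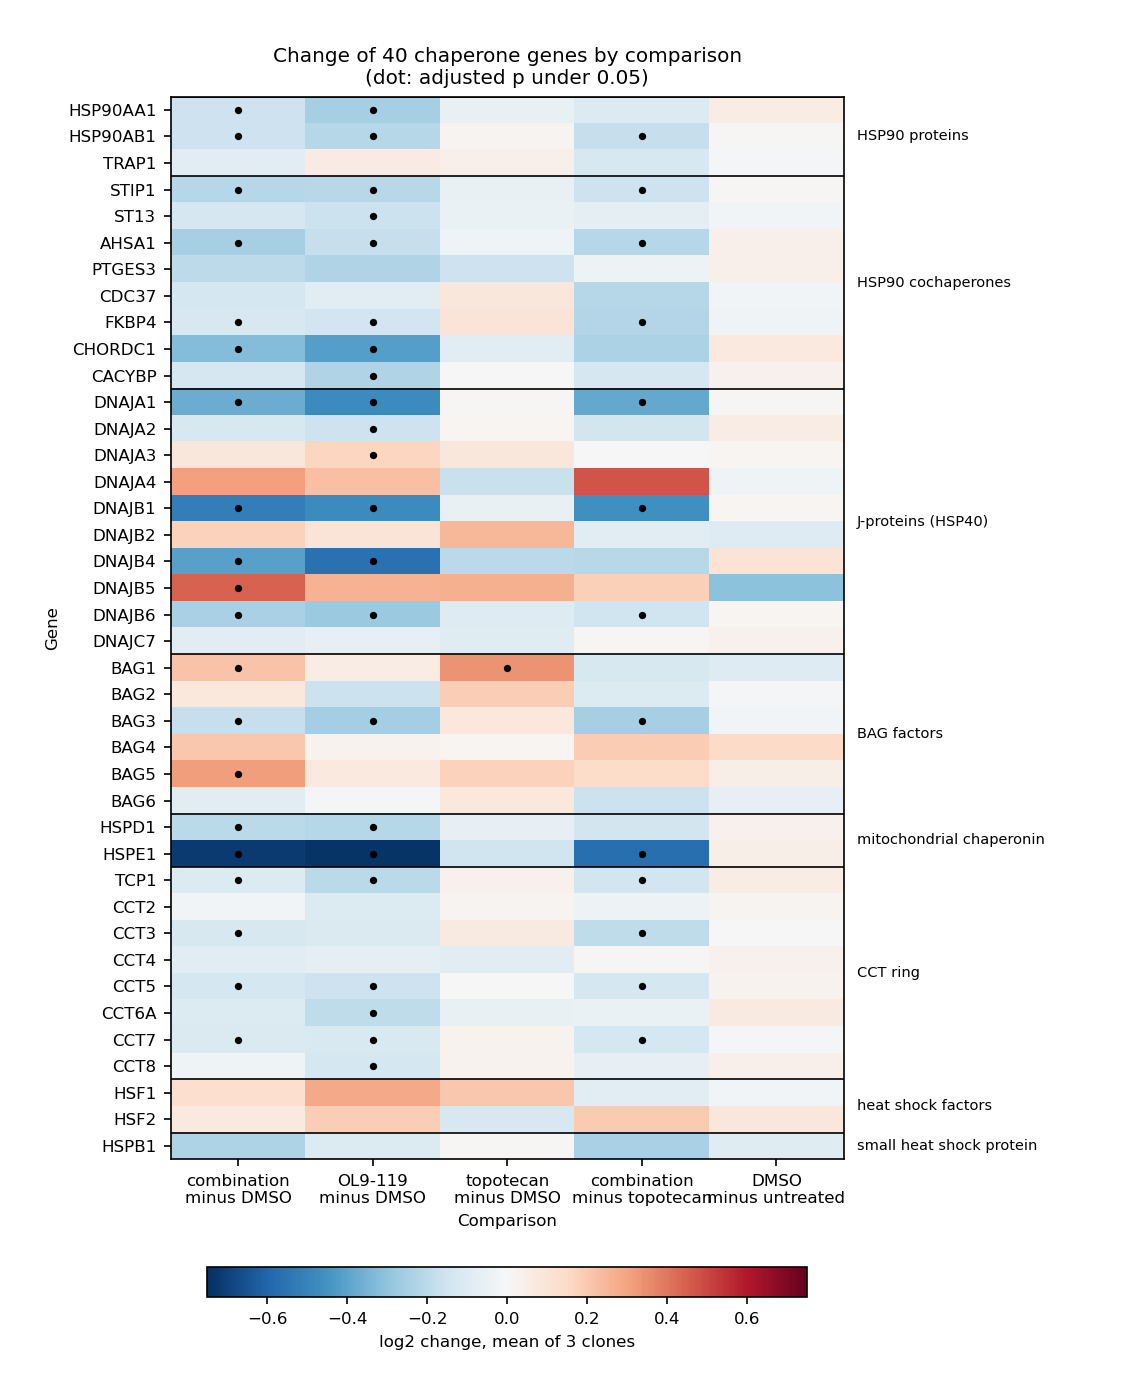
Heat map of the log2 change of the 40 genes (rows, by family) in 5 comparisons (columns), averaged over 3 clones with 4 libraries per clone and treatment; blue is lower and red is higher in the first-named treatment, and a dot marks an adjusted p under 0.05. The dots fill much of the OL9-119 column and the combination column (22 and 20 genes), stand at 13 genes in the combination minus topotecan, at BAG1 alone in the topotecan column, and are missing from DMSO minus untreated.

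Promoter windows of the genes are shown first, since the same short words recur in them. RefSeq windows of GRCh38.p14, from 250 bases before to 50 bases after a start, were found for 35 of the 40 genes (53 windows). Each window was searched on both strands for 2 alternating units, spelled GAA-NN-TTC or TTC-NN-GAA, and for 3 units, spelled GAA-NN-TTC-NN-GAA or TTC-NN-GAA-NN-TTC, where the longer words contain the shorter. The 3-unit word stood in 6 genes, CHORDC1, HSP90AA1, HSP90AB1, DNAJB6, DNAJA1 and HSPD1. It was in 11.3% of the 53 windows, against 0.49% of all 35116 windows in the table. All 6 genes were among the 18 lower genes that have a window, and it stood in 0 of the 16 genes with a window that passed the test in neither direction. The 2-unit word was in 15 genes, 10 of them lower after OL9-119 and 5 uncalled, and in 30.2% of the windows, against 13.5% of all windows. HSPE1 and BAG3 had neither word in their windows. The words of HSPD1, printed below from chr2:197500061-197500090, nevertheless lie inside the annotated span of HSPE1 on the other strand, chr2:197499994-197503457. Counting only bases before the start, 5 genes held the 3-unit word and 13 the 2-unit word. A match is a spelling in the sequence and no measurement of binding. The split between lower and uncalled genes was not tested, and the words were not counted among lower or uncalled genes outside the 40. The 40 genes were chosen with earlier results of these data known.

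The stretches that hold the words are printed below for the genes the results turn on, 5′ to 3′ on the strand of the gene, with each matching word in capitals. CHORDC1 lies at chr11:90223050-90223149 on the minus strand, HSP90AA1 at chr14:102087055-102087154 on the minus strand and HSP90AB1 at chr6:44247763-44247862 on the plus strand. DNAJB6 lies at chr7:157336854-157336953 on the plus strand, and HSPD1 at chr2:197500061-197500090 on the minus strand. DNAJB1, at chr19:14518398-14518497 on the minus strand, has 2 separate 2-unit words here and is shown because its adjusted p was the smallest.
CHORDC1: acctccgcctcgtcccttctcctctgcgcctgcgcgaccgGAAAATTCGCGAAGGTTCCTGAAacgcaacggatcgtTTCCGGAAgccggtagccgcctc
HSP90AA1: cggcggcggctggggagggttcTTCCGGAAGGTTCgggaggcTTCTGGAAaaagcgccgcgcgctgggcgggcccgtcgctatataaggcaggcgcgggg
HSP90AB1: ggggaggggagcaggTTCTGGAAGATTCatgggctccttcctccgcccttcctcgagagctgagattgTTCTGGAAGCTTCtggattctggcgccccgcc
DNAJB6: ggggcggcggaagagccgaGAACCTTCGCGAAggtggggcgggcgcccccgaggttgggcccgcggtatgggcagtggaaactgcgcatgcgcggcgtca
HSPD1: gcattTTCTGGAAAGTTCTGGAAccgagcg
DNAJB1: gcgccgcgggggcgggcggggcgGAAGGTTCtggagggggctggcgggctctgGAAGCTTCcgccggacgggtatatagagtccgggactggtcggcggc
In the CHORDC1 stretch a run of overlapping words begins 60 bases before the start, and a separate 2-unit word follows 23 bases before it. HSP90AB1 holds 2 separate 3-unit words, beginning 165 and 112 bases before the start. The words of HSPD1 begin 245 bases before its start.

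**Figure D2:**
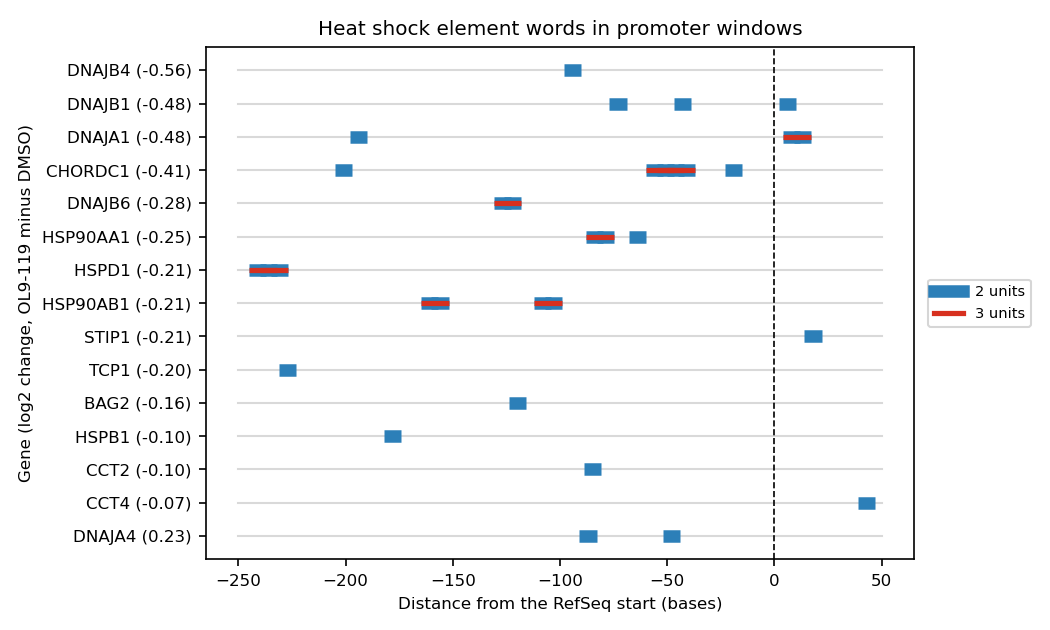
Position of the 2-unit (thick blue) and 3-unit (thin red) heat shock element words in bases from the RefSeq start (dashed line), for the 15 genes that hold either; each grey line spans a window of 250 bases before to 50 after the start, words of all windows of a gene share its line, and genes are ordered by the log2 change after OL9-119, given in brackets. The 3-unit words are found in the 6 genes CHORDC1, HSP90AA1, HSP90AB1, DNAJB6, DNAJA1 and HSPD1, whose changes lie between -0.21 and -0.48.

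Of the 40 genes, DNAJB1 had the smallest adjusted p after OL9-119. DNAJB1, a cytosolic J-protein that HSF1 induces, had 136 CPM in the lowest, 151 in the median and 162 CPM in the highest of 12 libraries after OL9-119, against 178, 211 and 243 CPM in DMSO. The groups did not overlap in any clone: the highest library after OL9-119 lay below the lowest in DMSO, as held for 0.0843% of all genes tested. The log2 change was -0.48 ± 0.04 (SE; adjusted p = 1.24e-12, edgeR quasi-likelihood test). Its median was 150 CPM in the combination, 205 CPM after topotecan and 216 CPM untreated, so the low level was found in both treatments that contain OL9-119. DNAJB1 shares 5.75% of its exon bases with TECR on the other strand, and no source used here gives the strand setting of the counting.

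DNAJA1, a farnesylated partner of HSC70, had 250, 346 and 439 CPM in the lowest, median and highest library after OL9-119, against 326, 457 and 682 CPM in DMSO. The groups overlapped over all clones, and within 2 of 3 clones they did not. Its log2 change was -0.48 ± 0.06 (adjusted p = 9.36e-09, edgeR). Medians of DNAJA1 were 358 CPM in the combination, 468 CPM after topotecan and 494 CPM untreated.

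DNAJB4, a close relative of DNAJB1, had 17.4, 23.7 and 34.1 CPM after OL9-119, against 25.7, 33.7 and 59.1 CPM in DMSO. The groups overlapped, and the log2 change was -0.56 ± 0.12 (adjusted p = 0.000851, edgeR). Its median was 25.4 CPM in the combination, 32.3 CPM after topotecan and 32.2 CPM untreated.

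DNAJB6, which holds back aggregation of polyglutamine proteins, had 108, 127.7 and 160 CPM in the lowest, median and highest library after OL9-119, against 132, 166 and 179 CPM in DMSO. It changed by -0.28 ± 0.04 in log2 units (adjusted p = 4.55e-08, edgeR). Its libraries did not overlap within any of the 3 clones, while the ranges over all clones did. The median was 141 CPM in the combination, 151 CPM after topotecan and 165 CPM untreated. Groups apart in at least 2 of 3 clones, as here, were found for 8 of the 40 genes and for 1.59% of all genes tested.

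DNAJA2, another HSC70 partner, changed by -0.16 ± 0.05 on the log2 scale with an adjusted p of 0.0467 (edgeR), and lost its call in 17 of the 24 fits that each left out 1 library, with library totals in place of TMM scaling (adjusted p = 0.156) and without the filter on low counts (0.238). DNAJA3, the mitochondrial J-protein, had 155, 206 and 242 CPM after OL9-119, against 127.2, 181 and 218 CPM in DMSO, with wide overlap. Its median was 191 CPM in the combination, 197 CPM after topotecan and 173 CPM untreated. The log2 change after OL9-119 was 0.16 ± 0.05 (adjusted p = 0.0221, edgeR), and 4 of the 24 fits lost the call: without C6 DMSO replicates 1 and 2, F7 DMSO replicate 2 and F7 OL9-119 replicate 4 the adjusted p lay between 0.0508 and 0.0616 (edgeR). Without the filter on low counts it was 0.107.

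DNAJA4, DNAJB2, DNAJB5 and DNAJC7 did not pass the test after OL9-119. DNAJB2, known from neurons, changed by 0.10 ± 0.10 and DNAJC7, a J-protein with tetratricopeptide repeats, by -0.06 ± 0.05 on the log2 scale. DNAJB5 changed by 0.26 ± 0.13. DNAJA4 was close to absent, with a mean of 0.541 ± 0.367 CPM after OL9-119 and 0.492 ± 0.336 CPM in DMSO (SD, n = 12 each) and 357 counts over all 60 libraries, so a change of this gene was not detectable at this depth.

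**Figure D3:**
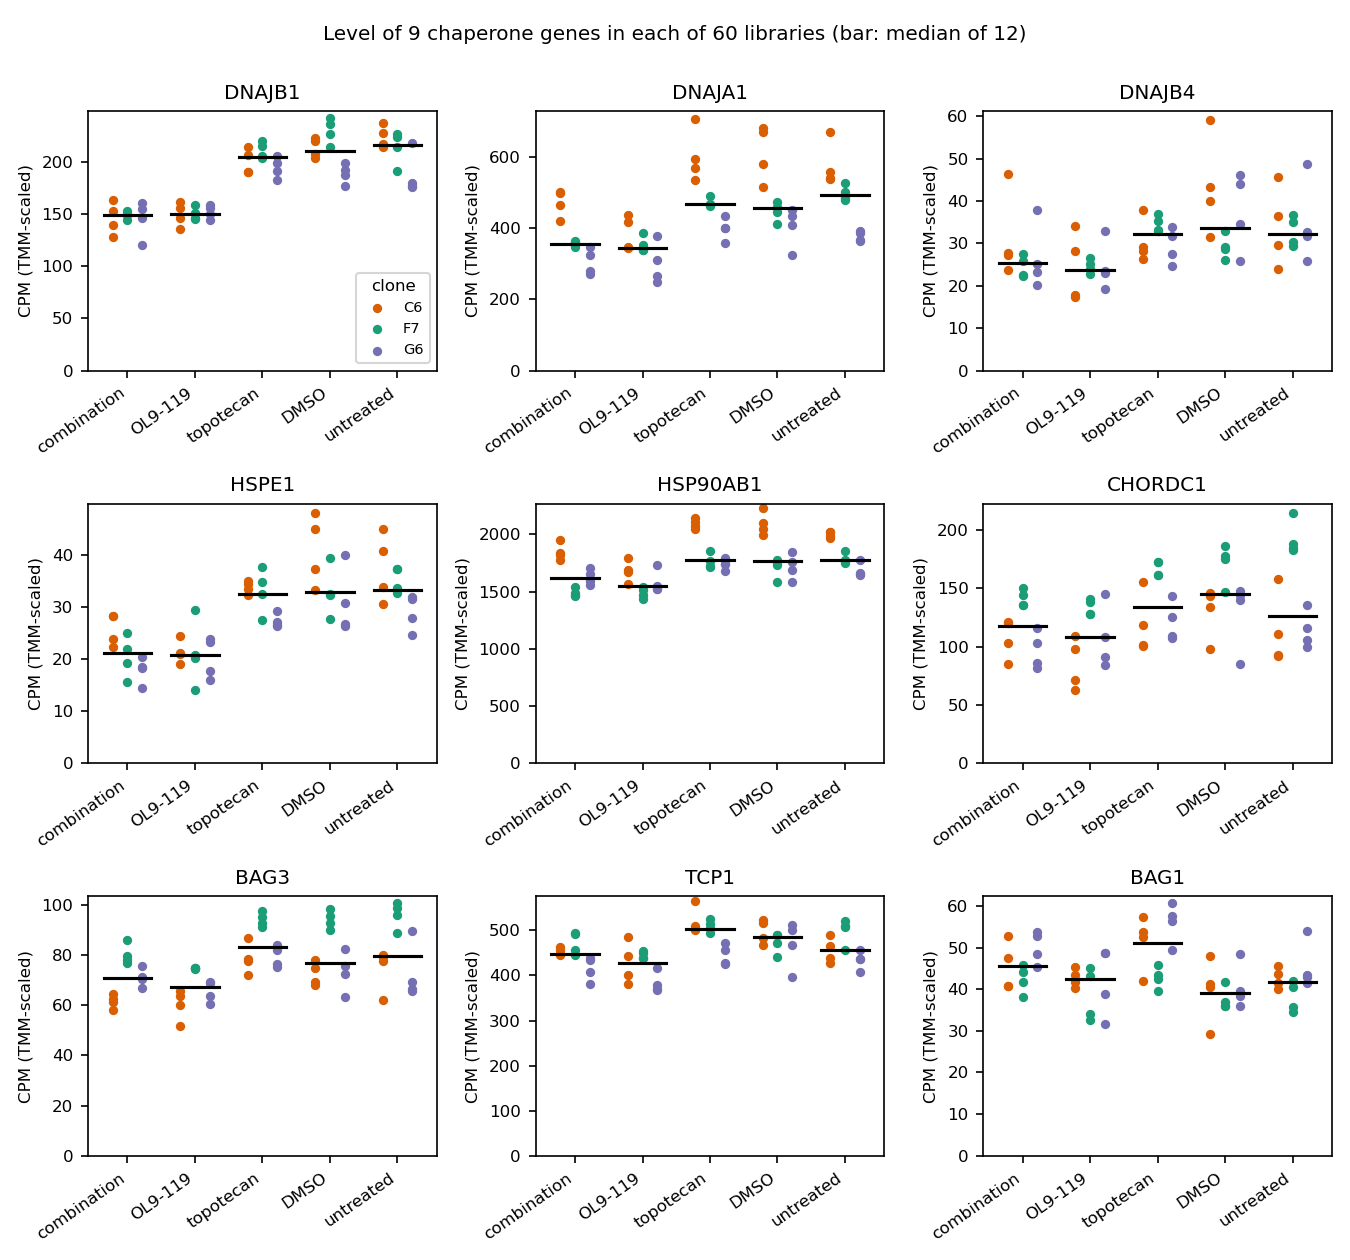
Level of 9 genes in each of the 60 libraries (y axis, CPM with TMM-scaled library sizes, starting at 0) by treatment (x axis, left to right the combination, OL9-119, topotecan, DMSO and untreated), coloured by clone, with a bar at the median of 12. The combination and OL9-119 columns of DNAJB1 (medians 150 and 151 CPM) lie wholly below its topotecan and DMSO columns (205 and 211 CPM); in the other genes the columns overlap.

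The mitochondrial chaperonin fell in both subunits. HSPE1, the lid, had 14.1, 20.8 and 29.4 CPM in the lowest, median and highest library after OL9-119, against 26.4, 32.8 and 48.1 CPM in DMSO. Only 1 of 12 libraries after OL9-119 lay above the lowest in DMSO, and in 2 of 3 clones the groups did not overlap. The log2 change was -0.73 ± 0.09 (adjusted p = 1.74e-08, edgeR). The median of HSPE1 was 21.2 CPM in the combination, 32.4 CPM after topotecan and 33.2 CPM untreated.

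HSPD1, the barrel, had 557, 693 and 845 CPM after OL9-119, against 580, 814 and 948 CPM in DMSO, with most of the ranges shared, and changed by -0.21 ± 0.05 in log2 units (adjusted p = 0.00377, edgeR). Medians of HSPD1 were 717 CPM in the combination, 816 CPM after topotecan and 803 CPM untreated.

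HSPE1 lies at chr2:197499994-197503457 on the plus strand, inside the annotated span of HSPD1 at chr2:197486581-197516737 on the minus strand (hg38, GENCODE 29). Of the exon bases of HSPE1, 14.2% overlap exons of HSPD1, which held 537427 counts over the 60 libraries, against 20145 for HSPE1. HSPE1 also overlaps the read-through gene HSPE1-MOB4 on its own strand in 9.71% of its exon bases, a gene listed with 0 counts, and 26 annotated HSPE1 pseudogenes held 3.94% as many counts as HSPE1. Per kb of exon, HSPE1 had 17.7 CPM and HSPD1 192 CPM in DMSO. No source used here says how reads in shared exons were assigned, and the level of HSPE1 is uncertain for that reason.

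Both cytosolic HSP90 genes fell. HSP90AB1, the constitutive form, had 1431, 1546 and 1796 CPM in the lowest, median and highest library after OL9-119, against 1579, 1766 and 2227 CPM in DMSO. The ranges overlapped over all clones, and in 2 of 3 clones they did not. Its log2 change was -0.21 ± 0.03 (adjusted p = 1.05e-07, edgeR). Medians were 1622 CPM in the combination, 1777 CPM after topotecan and 1774 CPM untreated.

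HSP90AA1, the stress-inducible form, had 2246, 2470 and 3183 CPM after OL9-119, against 2433, 3144 and 3752 CPM in DMSO. The groups overlapped, and the log2 change was -0.25 ± 0.06 (adjusted p = 0.00125, edgeR). Its median was 2790 CPM in the combination, 2888 CPM after topotecan and 2896 CPM untreated. HSP90AA1 made up 61.8% of the CPM of the pair in the median library after OL9-119 and 62.4% in DMSO. Per kb of exon the levels in DMSO were 594 CPM for HSP90AA1 and 618 CPM for HSP90AB1, and with the longest transcript as length the order turned, to 888 and 688 CPM. TRAP1, the mitochondrial HSP90, changed by 0.06 ± 0.08 and did not pass the test. Its medians were 216 CPM in the combination, 242 CPM after OL9-119, 231 CPM after topotecan, 235 CPM in DMSO and 225 CPM untreated. TRAP1 shares 29.3% of its exon bases with DNASE1 on the other strand, which held 21.8% as many counts. The level of TRAP1 is uncertain to that extent, since the strand setting of the counting is not given.

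All 8 HSP90 cochaperones had a log2 change below 0 after OL9-119, and 6 of them passed the test. CHORDC1, which binds the nucleotide domain of HSP90, had 62.6, 109 and 145 CPM in the lowest, median and highest library after OL9-119, against 85.4, 145 and 186 CPM in DMSO. The groups overlapped, and the log2 change was -0.41 ± 0.10 (adjusted p = 0.00202, edgeR). Its median was 118 CPM in the combination, 134 CPM after topotecan and 125.9 CPM untreated.

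STIP1, the bridge between HSP70 and HSP90, had 385, 532 and 638 CPM after OL9-119, against 467, 608 and 736 CPM in DMSO. Within each of the 3 clones the STIP1 libraries did not overlap, and the log2 change was -0.21 ± 0.03 (adjusted p = 2.24e-06, edgeR). Medians of STIP1 were 504 CPM in the combination, 573 CPM after topotecan and 553 CPM untreated.

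AHSA1, the activator of the HSP90 ATPase, had 89.4 CPM in the lowest, 103.2 CPM in the median and 114 CPM in the highest library after OL9-119, against 113 CPM in the median and 140 CPM in the highest library in DMSO. The groups were apart in 2 of 3 clones, and the log2 change was -0.17 ± 0.05 (adjusted p = 0.0108, edgeR). AHSA1 lost its call with library totals in place of TMM scaling (adjusted p = 0.0824) and without the filter on low counts (0.165). Its median was 96.6 CPM in the combination, 115 CPM after topotecan and 115 CPM untreated.

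CACYBP, which bridges ubiquitin ligase subunits, changed by -0.23 ± 0.06 on the log2 scale. Its medians were 170 CPM in the combination, 165 CPM after OL9-119, 189 CPM after topotecan, 189 CPM in DMSO and 187 CPM untreated. ST13, which holds HSP70 in its client-bound form, changed by -0.16 ± 0.05, and FKBP4, an immunophilin of steroid receptor complexes, by -0.14 ± 0.04. The call of ST13 was lost without G6 DMSO replicate 1 or G6 OL9-119 replicate 4 (adjusted p = 0.0662 and 0.0507, edgeR), and that of FKBP4 without C6 OL9-119 replicate 1 (adjusted p = 0.0519, edgeR). With library totals the adjusted p was 0.0729 for ST13 and 0.172 for FKBP4, and without the filter 0.0831 for ST13 and 0.159 for FKBP4.

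PTGES3, the p23 cochaperone, changed by -0.23 ± 0.08 with an adjusted p of 0.0722 (edgeR), and CDC37, the adaptor for kinases, by -0.08 ± 0.09.

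Averaged over the clones, all 8 CCT subunits had a log2 change between -0.20 and -0.07 after OL9-119. All 8 were below 0 in C6 and in G6, while in F7 6 were, with CCT2 at 0.04 ± 0.08 and CCT4 at 0.05 ± 0.06. Over the clones 5 passed the test: TCP1 (-0.20 ± 0.04), CCT6A (-0.19 ± 0.05), CCT5 (-0.15 ± 0.04), CCT8 (-0.13 ± 0.04) and CCT7 (-0.11 ± 0.04). TCP1, the first subunit, had 368, 427 and 486 CPM in the lowest, median and highest library after OL9-119, against 398, 486 and 524 CPM in DMSO, with overlap (adjusted p = 0.000192, edgeR). Its median was 447 CPM in the combination, 502 CPM after topotecan and 457 CPM untreated. Medians of CCT5 were 919 CPM in the combination, 829 CPM after OL9-119, 1030 CPM after topotecan, 996 CPM in DMSO and 957 CPM untreated. CCT6A had medians of 417 CPM in the combination, 369 CPM after OL9-119, 422 CPM after topotecan, 410 CPM in DMSO and 420 CPM untreated. In these subunits the median after OL9-119 was the lowest of the 5, and the ranges overlapped. CCT8 had medians of 350 CPM in the combination, 334 CPM after OL9-119, 376 CPM after topotecan, 363 CPM in DMSO and 371 CPM untreated, also lowest after OL9-119. CCT7 and CCT8 stood at adjusted p = 0.0497 and 0.0490 (edgeR), and lost their calls in 20 and 16 of the 24 fits that left out 1 library. CCT2, CCT3 and CCT4 did not pass the test. With library totals in place of TMM scaling all 8 stayed below 0, but their median was -0.07 in place of -0.12, and CCT7 and CCT8 lost their calls (adjusted p = 0.37 and 0.197). Without the filter on low counts CCT5 lost its call too (adjusted p = 0.0604), as did CCT7 (0.313) and CCT8 (0.247).

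Of the 6 BAG factors, BAG3 alone passed the test after OL9-119. BAG3 couples HSP70 to small heat shock proteins and autophagy. It had 51.6, 67.3 and 74.9 CPM in the lowest, median and highest library after OL9-119, against 63.3, 76.9 and 98.4 CPM in DMSO. The groups overlapped over all clones and were apart in 2 of 3, and the log2 change was -0.26 ± 0.05 (adjusted p = 0.000192, edgeR). Its median was 70.9 CPM in the combination, 83.1 CPM after topotecan and 79.7 CPM untreated. BAG1, BAG2, BAG4, BAG5 and BAG6 had log2 changes between -0.16 and 0.07. BAG2, an inhibitor of the ubiquitin ligase CHIP, had medians of 38.7 CPM in the combination, 30.7 CPM after OL9-119, 40.1 CPM after topotecan, 35.4 CPM in DMSO and 38.1 CPM untreated. BAG2 shares 42.7% of its exon bases with RAB23 on the other strand, which held 105.7% as many counts. Its level is uncertain, since the strand setting of the counting is not given.

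The heat shock factors and the small heat shock protein did not pass the test after OL9-119. HSF1 changed by 0.28 ± 0.13 and HSF2, its relative, by 0.19 ± 0.08, with adjusted p of 0.178 and 0.148 (edgeR), and HSPB1, also called HSP27, changed by -0.10 ± 0.09. Medians of HSF1 were 54.5 CPM in the combination, 60.2 CPM after OL9-119, 56.8 CPM after topotecan, 50.1 CPM in DMSO and 49.5 CPM untreated. HSF2 had medians of 68.7 CPM in the combination, 71.1 CPM after OL9-119, 59.8 CPM after topotecan, 63.9 CPM in DMSO and 63.9 CPM untreated. The ranges of both factors overlapped between all treatments. HSPB1 had medians of 135 CPM in the combination, 138 CPM after OL9-119, 164 CPM after topotecan, 171 CPM in DMSO and 165 CPM untreated.

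Neighbouring families were read in the same fit, against the 5.00% of all genes tested that were lower and the 4.47% that were higher. In the HSP70 and HSP110 list, 4 of 15 tested genes fell after OL9-119 and 0 rose: HSPA8, the constitutive HSC70, changed by -1.08 ± 0.04, HSPA1B by -1.09 ± 0.11, HSPH1 by -0.39 ± 0.05 and HSPA2 by -0.73 ± 0.20. HSPA1B has a near-identical copy, HSPA1A, so its counts are uncertain. Of 30 further J-proteins 3 rose (DNAJC28, DNAJC16 and DNAJC18) and 1 fell (DNAJB11), and of 21 further HSP90 cochaperones only SUGT1 fell (-0.22 ± 0.06). Prefoldin and CCT helpers had 2 of 13 tested genes lower, PFDN5 and PFDN6, both at -0.32. In the list of mitochondrial proteostasis GRPEL2, the nucleotide exchange factor of mitochondrial HSP70, rose by 0.62 ± 0.07, alone among 15. In the list of HSF family and regulators HSBP1, which binds HSF1, changed by -0.38 ± 0.05, alone among 7 tested. Of 9 further small heat shock proteins 4 were tested and 0 passed by edgeR, with HSPB8 at an unadjusted p of 0.0182. Single genes in lists of this size are near the share over all genes.

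After topotecan alone, 1 of the 40 genes rose relative to DMSO, while 15.3% of all genes tested passed the threshold, 5.99% as higher. The median log2 change of the 40 was 0.01, against 0.02 over all genes. The gene was BAG1, a nucleotide exchange factor of HSP70 that also binds BCL2. It had 39.5, 50.96 and 60.7 CPM in the lowest, median and highest library after topotecan, against 29.3, 38.96 and 48.3 CPM in DMSO. The groups overlapped, the mean was higher in 3 of 3 clones, and the log2 change was 0.34 ± 0.07 (adjusted p = 0.000297, edgeR). BAG1 kept its call in all 24 fits that left out 1 library. The count of called genes was 4 without G6 DMSO replicate 4, and 2 without C6 DMSO replicate 2 or 3, G6 DMSO replicate 3, C6 topotecan replicate 3 or G6 topotecan replicate 1. It was 4 with library totals, 3 with DESeq2 and 6 with the replicate number as a block (5 higher and 1 lower). Its median was 45.6 CPM in the combination, 42.5 CPM after OL9-119 and 41.8 CPM untreated. All 6 BAG factors had a log2 change above 0 after topotecan, and the other 5 did not pass the test.

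None of the 21 genes that fell after OL9-119 passed the test after topotecan, a comparison with the same DMSO libraries. DNAJB1 had 183, 205 and 220 CPM after topotecan, against 178, 211 and 243 CPM in DMSO (log2 change -0.06 ± 0.04), and HSPE1 had 26.3, 32.4 and 37.6 CPM, against 26.4, 32.8 and 48.1 CPM (log2 change -0.15 ± 0.09). The topotecan and DMSO ranges of both genes overlapped. HSP90AB1 changed by 0.02 ± 0.03 and DNAJA1 by 0.01 ± 0.06. OL9-119 set directly against topotecan gave 22 lower genes and 1 higher among the 40 (22.7% of all genes tested passed in either direction, 10.2% as lower and 12.5% as higher), and the higher gene was HSF2 at 0.31 ± 0.08.

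The combination lowered 17 of the 40 genes and raised 3 relative to DMSO, while 21.2% of all genes tested passed the threshold, 11.7% as lower and 9.52% as higher. With library totals in place of TMM scaling the split was 10 lower and 5 higher. DNAJB1 had 120.6, 150 and 164 CPM in the lowest, median and highest library of the combination, and all 12 lay below all 12 in DMSO, as held for 0.400% of genes (log2 change -0.52 ± 0.04). HSPE1 changed by -0.72 ± 0.09, DNAJB4 by -0.41 ± 0.12, DNAJA1 by -0.37 ± 0.06 and CHORDC1 by -0.32 ± 0.10. The higher genes were DNAJB5 (0.44 ± 0.13), BAG5 (0.31 ± 0.07) and BAG1 (0.22 ± 0.07). Of the 20 called genes, 15 kept the call in every fit that left out 1 library. BAG1 lost its call without C6 combination replicate 2 (adjusted p = 0.0606) or F7 combination replicate 2 (0.0501). HSP90AA1, FKBP4, TCP1 and CCT7, all lower, also lost theirs in some of these fits. The adjusted p reached 0.105 for HSP90AA1 without G6 DMSO replicate 1 and 0.142 for TCP1 without C6 DMSO replicate 1 (edgeR). Without the 14 libraries of low gene detection 14 were lower and 2 higher, and BAG1 (adjusted p = 0.0724) and DNAJB5 (0.0583) were not among the higher.

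The effect of OL9-119 can also be read on top of topotecan, from libraries that the comparison with DMSO does not use. In the combination minus topotecan, 13 of the 40 genes were lower and 0 higher, against 3.45% lower among all genes tested (6.78% in either direction). Of these 13, 12 were also among the 21 that fell after OL9-119 relative to DMSO, which is 92.3% of the 13 and 57.1% of the 21; CCT3 was the other. All 21 had a log2 change below 0 in the combination minus topotecan. Both comparisons measure OL9-119, and the overlap and shared signs were not counted over all genes tested. These counts therefore do not set the 40 apart from other genes. DNAJB1 again did not overlap between 12 and 12 libraries, with 120.6, 150 and 164 CPM in the combination, against 183, 205 and 220 CPM after topotecan (-0.46 ± 0.04, adjusted p = 9.26e-12, edgeR), as held for 0.0685% of genes. HSPE1 changed by -0.56 ± 0.09, DNAJA1 by -0.38 ± 0.06, BAG3 by -0.25 ± 0.05, FKBP4 by -0.22 ± 0.04, AHSA1 by -0.22 ± 0.05 and HSP90AB1 by -0.17 ± 0.03. Without the 14 libraries of low gene detection the count was 12.

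Adding topotecan to OL9-119 changed 1 of the 40, with 12.7% of all genes tested passing, 5.00% as higher. BAG5, another BAG factor, had 58.4, 72.5 and 114 CPM in the lowest, median and highest library of the combination, against 51.3, 60.3 and 94.5 CPM after OL9-119, with overlap. Its median was 65.9 CPM after topotecan, 58.8 CPM in DMSO and 59.5 CPM untreated. The log2 change was 0.24 ± 0.07 (adjusted p = 0.00937, edgeR). The count of called genes was 4 without G6 combination replicate 4, and 2 without C6 OL9-119 replicate 1 or 4, G6 OL9-119 replicate 1 or C6 combination replicate 3. It was 5 with library totals, 4 with DESeq2, and 3 with RLE factors or the replicate number as a block.

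The interaction of topotecan and OL9-119, which asks whether the combination differs from the sum of both log2 changes, passed for 0 of the 40 genes by edgeR and by DESeq2 (0.0316% of all genes tested by edgeR); 3 had an unadjusted p under 0.05. The interaction was 0.02 ± 0.06 for DNAJB1, 0.17 ± 0.13 for HSPE1 and 0.35 ± 0.17 for DNAJB4. DMSO minus untreated passed for 0 of the 40 by edgeR and by DESeq2 (0.0158% of all genes tested by edgeR), and 1 gene had an unadjusted p under 0.05. DNAJB1 had 178, 211 and 243 CPM in DMSO, against 176, 216 and 237 CPM untreated, with overlapping ranges.

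**Figure D4:**
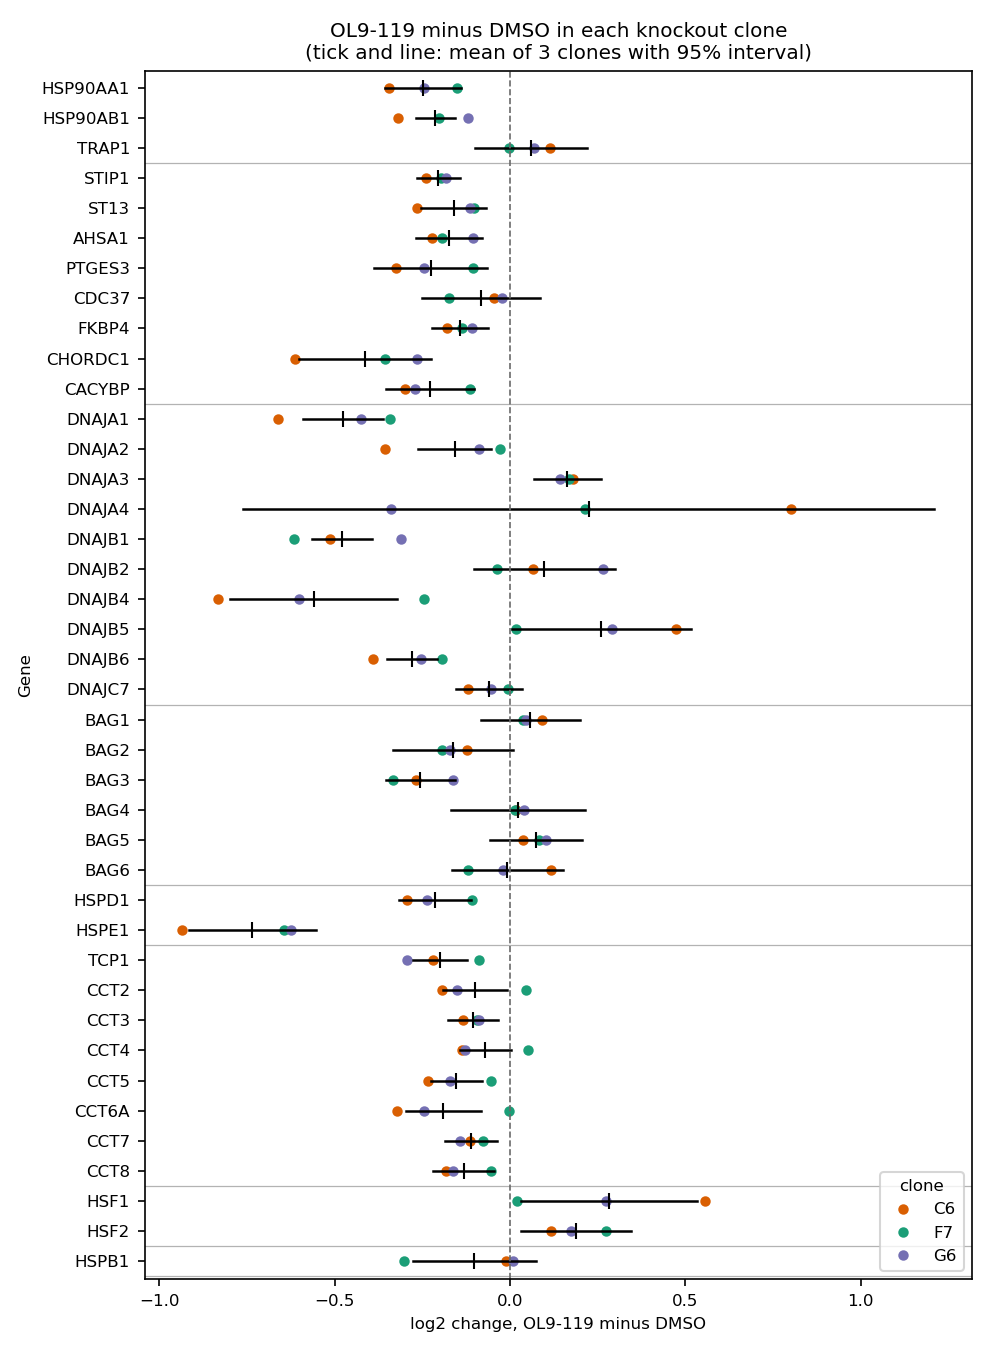
Log2 change after OL9-119 minus DMSO (x axis) of the 40 genes (rows, families separated by grey lines) in clones C6, F7 and G6 (coloured points, 4 libraries per clone and treatment), with the mean over clones (tick) and its 95% interval (line). For HSPE1, DNAJB1 and DNAJA1 the points of all 3 clones lie below -0.30, and the interval of DNAJA4 is the widest.

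Estimates of the falls varied between the 3 clones, but a dependence on the clone did not pass the test for any of the 40 genes. Within C6, 12 of the 40 genes were lower after OL9-119 (1.93% of all genes tested, 3.25% in either direction), within F7 4 (0.411 and 1.05%) and within G6 5 (0.953 and 1.86%), with 0 higher in each. DNAJB1 and HSPE1 passed in all 3 clones, DNAJA1 and DNAJB6 in C6 and G6, and HSP90AB1 in C6 and F7. With single libraries left out, the counts were 6 to 16 in C6, 1 to 3 in F7 and 1 to 10 in G6.

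DNAJB1 changed by -0.51 ± 0.08 in C6, -0.61 ± 0.08 in F7 and -0.31 ± 0.08 in G6. DNAJA1 changed by -0.66 ± 0.10 in C6, -0.34 ± 0.10 in F7 and -0.42 ± 0.10 in G6, and HSPE1 by -0.93 ± 0.16 in C6, -0.64 ± 0.16 in F7 and -0.62 ± 0.16 in G6. The dependence of the OL9-119 change on the clone passed for 0 of the 40 genes by edgeR (0.0263% of all genes tested), with 3 at an unadjusted p under 0.05: DNAJB1, HSP90AB1 and DNAJA2, all at an adjusted p of 0.999. For topotecan 0 passed with 1 under 0.05 unadjusted (0.137% of all genes tested passed), and for the combination 0 passed with 0 under 0.05 (0.169%). Within clones, topotecan changed 0 of the 40 genes in C6 and in F7 by edgeR (4.71 and 1.94% of all genes tested) and 2 in G6 (8.72%), where BAG1 was higher by 0.46 and CCT4 changed by -0.20. With single libraries left out, these counts were 0 to 1 in C6 and 0 to 6 in G6.

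Genes among the 40 also differed in level between the clones, as did many of all genes tested. In DMSO, 25 of the 40 differed between C6 and F7 (39.5% of all genes tested), 14 between C6 and G6 (24.4%) and 8 between F7 and G6 (17.1%). The last count is near the share over all genes. The splits were 17 higher and 8 lower in C6 against F7 (20.4 and 19.2% of all genes tested), 12 and 2 in C6 against G6 (11.6 and 12.8%), and 7 and 1 in F7 against G6 (6.89 and 10.2%). With library totals in place of TMM scaling the first split became 10 higher and 13 lower and the second 12 and 4. Without the libraries of low gene detection, 10 of which are from C6, the 3 counts were 20, 18 and 13.

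The untreated libraries, a comparison added after seeing the data, repeated part of these differences. Of the genes called in DMSO, 10 of the 25, 12 of the 14 and 7 of the 8 passed again with the same sign. With the opposite sign 0 passed. In untreated libraries C6 against F7 had 13 called genes, 5 higher and 8 lower, so more were lower, the reverse of DMSO. C6 against G6 had 17 (14 higher and 3 lower) and F7 against G6 had 17 (16 and 1), against 14 and 8 in DMSO. Over all genes tested, 32.7, 22.4 and 16.7% passed in the untreated libraries. HSPB1 averaged 233 ± 36.6 CPM in clone C6, 158 ± 16.4 CPM in clone F7 and 139 ± 30.2 CPM in clone G6 (SD, n = 4 each, DMSO), with log2 differences of 0.56 ± 0.16 for C6 minus F7 and 0.74 ± 0.16 for C6 minus G6. DNAJB2 averaged 26.9 ± 5.65 CPM in clone C6, 59.3 ± 3.17 CPM in clone F7 and 36.98 ± 8.95 CPM in clone G6, a difference of -1.14 ± 0.18 for C6 minus F7. STIP1 averaged 479 ± 13.1 CPM in clone C6, 722 ± 17.1 CPM in clone F7 and 603 ± 23.1 CPM in clone G6, lowest in C6 and highest in F7 with no overlap between clones. ST13, the other HSP70 to HSP90 adaptor, had the opposite order, with 579 ± 65.7 CPM in clone C6, 365 ± 25.7 CPM in clone F7 and 477 ± 53.3 CPM in clone G6.

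**Figure D5:**
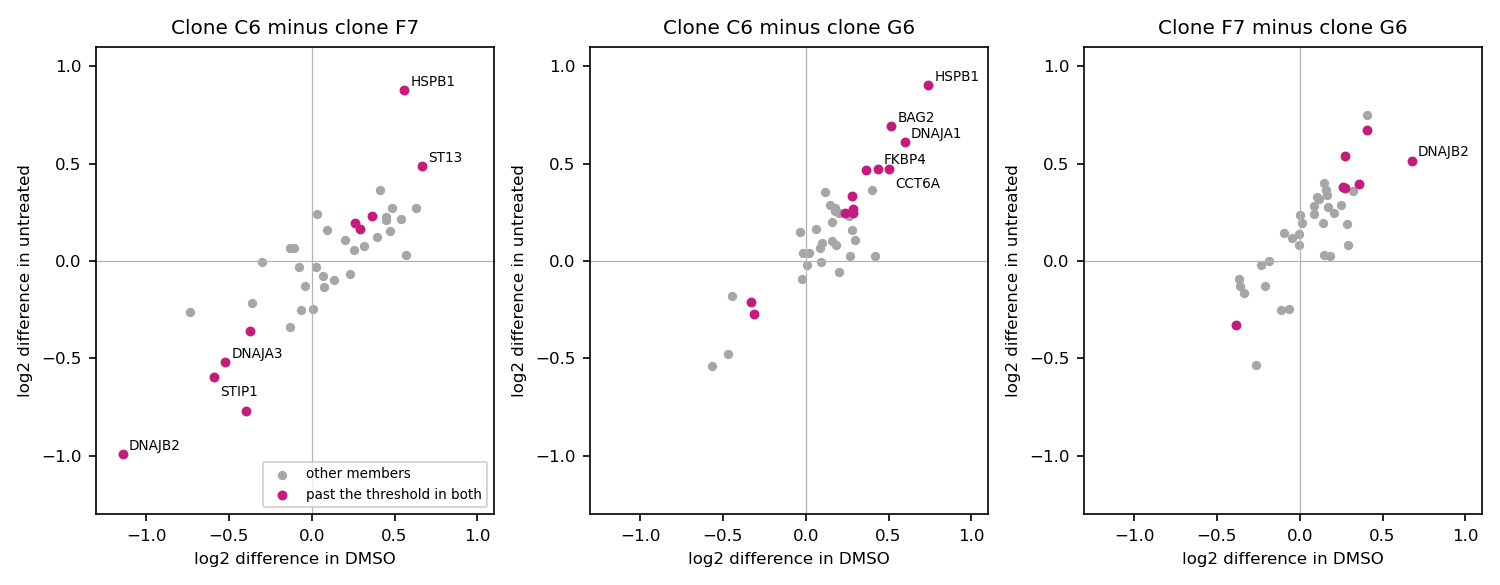
Log2 difference between clones in DMSO (x axis) and in untreated libraries (y axis) for 39 of the 40 genes in the 3 pairs of clones (panels), with genes past the threshold in both in magenta and all others in grey; DNAJA4 is left out for its low counts. HSPB1 stands highest in the C6 minus F7 and C6 minus G6 panels and DNAJB2 lowest in C6 minus F7, and no magenta point has opposite signs on the axes.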

How the data were processed

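Poly(A) RNA was sequenced from 60 libraries of 3 TDP1 knockout clones under 5 treatments. The deposited table holds raw counts per Ensembl gene and library. Per the submitters' processing notes, the build was hg38 and the tools were STAR 2.7.8, Picard 2.26.6 and FastQC 0.11.9. What counted the reads, with which annotation and strand setting, is not given in the sources used here. Per the labels' protocols, the library kit was directional, and the strand setting bears on overlapping genes such as HSPE1 and HSPD1.

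From the deposited counts, edgeR 4.0.16 (R 4.3.3, limma 3.58.1) was used with TMM scaling, filterByExpr and a quasi-likelihood fit with 1 mean for each of the 15 groups of clone and treatment. Comparisons averaged over the 3 clones were tested at a Benjamini-Hochberg adjusted p under 0.05 over 18985 genes. CPM values use TMM-scaled library sizes, apart from those of TDP1, which use plain totals, and the SE was taken from the fold change and its F value. Symbols and coordinates come from GENCODE 29 and promoter windows from RefSeq. The fit was tested on simulated data. Alternatives were DESeq2 1.42.0, other scalings, no filter, a replicate block, single libraries, clones or prefixes left out, and the libraries of low gene detection left out. Within each family, the text gives up to 4 genes with the smallest p after OL9-119 in every treatment, any gene called against its family's direction, up to 4 genes called for topotecan or DMSO, and counts for all others; genes outside this rule are named for a count of 5 or fewer. The members and lists were chosen with earlier results of these data known. Columns of per-sample values left unused numbered 0.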

Additional observations from a re-analysis of the deposited data

Results flagged for a closer look

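Levels of 10 genes were checked in groups of 4 libraries, 75 groups in all, for a library that stands far from the other 3. The measure was the gap to the nearest other library over the range of the group, on log2 values, and 5 groups passed Dixon's 95% critical value. Chance flags about 1 group in 20.

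DNAJB1 in untreated G6 had 218.4 CPM in replicate 4, above 176.0 to 180.1 CPM in the others (gap over range 0.893). DNAJA1 in untreated C6 had 672.5 CPM in replicate 2, above 540.3 to 559.4 CPM in the others (0.841). DNAJB2 in the same library was the lowest, at 15.78 CPM, below 31.4 to 35.56 CPM in the others (0.847). That library is among the 14 of low gene detection.

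CHORDC1 in DMSO G6 had 85.43 CPM in replicate 4, below 140.2 to 147.9 CPM in the others (0.903). HSPB1 in the same library was the highest, at 184.3 CPM, above 120.0 to 127.9 CPM in the others (0.851). That library is not among those of low gene detection, and it enters every comparison with DMSO.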

How the results depend on the processing

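In the 6 comparisons between treatments averaged over clones, no called gene turned its sign under any setting run; called differences between or within clones were not followed gene by gene. Counts of called genes among the 40 moved by more than 1.5 times as follows. After OL9-119 relative to DMSO (22 genes) the count was 1 within prefix L01, 0 within L02, 11 without clone C6 and 13 without F7, and 18 to 22 with single libraries left out. After topotecan (1) it was 4 with library totals, 2 without the filter, 6 with the replicate block, 3 without the 14 libraries of low gene detection, 4 with prefix and clone as a block, 0 within L01 and L02, 4 within L03, 2 without clone C6 and 3 with DESeq2, and 1 to 4 with single libraries left out (4 without G6 DMSO replicate 4, 2 without C6 DMSO replicates 2 and 3, G6 DMSO replicate 3, C6 topotecan replicate 3 or G6 topotecan replicate 1). The combination relative to DMSO (20) gave 2 within L01, 0 within L02, 9 without F7 and 11 without G6, and relative to topotecan (13) 0 within L01 and L02 and 4 without F7. With single libraries left out these counts were 16 to 24 and 12 to 15. The combination relative to OL9-119 (1) gave 3 with RLE factors, 5 with library totals, 2 without the filter, 3 with the replicate block, 2 without the 14 libraries, 2 with the prefix block, 0 within each prefix and 4 with DESeq2, and 1 to 4 with single libraries left out (4 without G6 combination replicate 4, 2 without C6 OL9-119 replicate 1 or 4, G6 OL9-119 replicate 1 or C6 combination replicate 3). OL9-119 relative to topotecan (23) gave 1 within L01 and 0 within L02, and F7 minus G6 in DMSO (8) gave 15 with library totals and 13 without the 14 libraries. The cause of these moves was not tested. Fits within prefixes, with 20 libraries each, and fits without a clone used fewer libraries than the main fit. Only G6 within L01, C6 within L02 and F7 within L03 have more than 1 library per group. The spread within a prefix comes from that clone alone, so the counts within prefixes cannot be compared with each other or with the main fit. For OL9-119 relative to DMSO, 0.315% of all genes tested passed within L01 and 0.165% within L02, against 11.3% within L03.

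Within single clones the counts rest on 4 libraries a group. OL9-119 in C6 (12) gave 20 with the replicate block and 6 to 16 with single libraries left out (6 without C6 OL9-119 replicate 2 or 3, 7 without C6 DMSO replicate 2). In F7 (4) it gave 8 without the 14 libraries and 1 to 3 with single libraries left out (1 without F7 DMSO replicate 1, 3 or 4 or F7 OL9-119 replicate 2, 3 or 4). In G6 (5) it gave 3 without the filter, 8 with the block and 1 to 10 with single libraries left out (10 without G6 DMSO replicate 4, 1 without replicate 3, 2 without DMSO replicates 1 and 2 and OL9-119 replicates 2 and 4). Topotecan in C6 (0) gave 1 with library totals, 1 with the block and 0 to 1 with single libraries left out (1 without C6 DMSO replicate 3 or topotecan replicate 1). In G6 (2) it gave 1 with library totals, 5 with the block and 0 to 6 with single libraries left out (0 without G6 DMSO replicate 1, 6 without DMSO replicate 4, 1 without any of the other 6). The replicate numbers were not taken as pairs, since same-numbered libraries deviated together in some sets only. For OL9-119 minus DMSO their correlations ran from -0.42 to 0.79, over 0.1 in 6 of 12, and 6 of 12 correlated best with their own number. Over the 7 comparisons, replicate 4 of G6 had correlations of 0.59 to 0.80, replicate 3 of C6 0.56 to 0.73 and replicate 1 of G6 0.41 to 0.54. The replicate block gave 25 genes for OL9-119, 24 for the combination relative to DMSO and 19 relative to topotecan. Of the 22 genes called after OL9-119, 16 kept the call in all 24 fits that left out 1 library and 0 kept it in every other setting too, since the fit within L02 called none. Genes near 1 CPM, DNAJA4 among the 40, allow no statement at this depth.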
